A study of Mus musculus with 4 samples.

Results

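The distal ends of the mouse autosomes are the ends that lie away from the centromere. They held 2386 of the 82325 accessible sites measured in immortalized mouse embryonic fibroblasts (MEFs), or 2.90% of the table. A site belonged to an end if it was autosomal and its start lay within 3 Mb of the largest site end listed for the same chromosome, so no accessibility value entered the choice. The 19 ends contributed between 11 sites (chromosome 17) and 242 sites (chromosome 11), with a median of 132. The sites nearest to the 3 Mb limit were chr10:127569413-127569886, which started 2.997 Mb from the largest end and was a member, and chr11:118981044-118981317, which started 3.001 Mb from it and was not.

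Open chromatin was profiled by ATAC-Seq, which uses Tn5 transposase to tag exposed DNA with sequencing adapters, in nuclei of fibroblast lines on a C57bl6 background. The lines came from Hat1+/+ embryos (HAT1 WT, n = 2) and Hat1-/- embryos (HAT1 KO, n = 2), and all 4 were immortalized with SV40 T antigen. Each library is a different line, so a genotype is represented by 2 lines and any difference between embryos or from immortalization is part of the spread between replicates. The comparison asks how the loss of HAT1, the acetyltransferase of newly made histone H4, changes accessibility.

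Mouse autosomes are telocentric, so the centromere lies close to a telomere and the distal telomere caps the long arm at the other. Telomeres are arrays of the repeat TTAGGG bound by the shelterin complex, and are followed inward by subtelomeric sequence that in mouse runs soon into ordinary genes. In the reference assembly the arrays themselves are represented by unsequenced bases, so the sites here are subtelomeric and not telomeric.

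The sequences below carry the strongest signal and the changes at the ends. All are the plus strand of GRCm38.p6, the same coordinates as mm10, 200 bases of a site each, taken where no exon is annotated. The first 2 come from the sites with the highest and the second highest mean value of the whole table, with every CG dinucleotide in capitals.
Ppp2r3d site, chr9:124423034-124423233: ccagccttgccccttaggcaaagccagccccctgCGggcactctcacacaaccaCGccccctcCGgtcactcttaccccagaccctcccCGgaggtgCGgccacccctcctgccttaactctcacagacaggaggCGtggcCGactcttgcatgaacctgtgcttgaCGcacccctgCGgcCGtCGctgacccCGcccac
Last site of chromosome 19, chr19:61266740-61266939: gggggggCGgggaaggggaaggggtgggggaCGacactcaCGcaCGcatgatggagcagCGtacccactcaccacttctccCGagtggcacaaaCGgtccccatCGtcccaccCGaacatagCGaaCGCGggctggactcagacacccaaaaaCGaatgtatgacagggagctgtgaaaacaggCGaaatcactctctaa

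The next 5 come from sites called different between the genotypes, with matches to TGANTCA, the core letters bound by AP-1, in capitals.
Negr1 intron site, chr3:157190575-157190774: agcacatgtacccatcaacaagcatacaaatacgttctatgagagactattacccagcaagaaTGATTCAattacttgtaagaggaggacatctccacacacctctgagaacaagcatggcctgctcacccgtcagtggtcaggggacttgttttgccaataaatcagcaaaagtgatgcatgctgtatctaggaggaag
Lrrc7 intron site, chr3:158272798-158272997: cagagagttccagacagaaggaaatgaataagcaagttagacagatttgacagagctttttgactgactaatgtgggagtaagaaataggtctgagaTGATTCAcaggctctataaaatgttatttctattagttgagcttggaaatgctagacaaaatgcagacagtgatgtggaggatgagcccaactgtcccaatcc
Dscam intron site, chr16:96602291-96602490: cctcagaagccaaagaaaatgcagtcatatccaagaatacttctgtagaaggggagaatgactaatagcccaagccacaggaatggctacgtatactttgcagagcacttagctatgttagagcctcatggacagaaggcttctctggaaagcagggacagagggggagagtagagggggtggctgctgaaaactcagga
Site between Macc1 and Tmem196, chr12:119762581-119762780: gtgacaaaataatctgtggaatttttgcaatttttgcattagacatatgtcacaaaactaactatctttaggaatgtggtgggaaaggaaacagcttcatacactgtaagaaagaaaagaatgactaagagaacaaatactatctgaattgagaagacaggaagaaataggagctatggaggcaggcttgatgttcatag
Hhat intron site, chr1:192745687-192745886: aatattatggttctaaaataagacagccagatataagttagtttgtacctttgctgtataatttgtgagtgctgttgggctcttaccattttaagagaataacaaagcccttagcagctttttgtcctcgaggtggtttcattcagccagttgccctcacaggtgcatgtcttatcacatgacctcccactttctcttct

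The last is the site of the 19 that lies closest to the unsequenced bases, shown because it borders the end of the assembled sequence. It ends 247 bases before those bases and holds no match to TGANTCA, so no letter is in capitals.
Last site of chromosome 5, chr5:151734238-151734437: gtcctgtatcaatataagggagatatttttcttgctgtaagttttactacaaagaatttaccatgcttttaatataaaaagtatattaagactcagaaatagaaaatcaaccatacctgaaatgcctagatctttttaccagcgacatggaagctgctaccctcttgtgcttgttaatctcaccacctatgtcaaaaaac

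The CG-rich stretch of the Ppp2r3d site had a GC content of 67.5% with 12 CG dinucleotides, and that of chromosome 19 had 59.5% with 14. The stretch at the end of chromosome 5 had 33.5%. Both sites that fell on chromosome 3 held 1 match to TGANTCA, and the Dscam site and the site between Macc1 and Tmem196 held none. The site in Hhat held 1 match outside the stretch shown. In the central 300 bases, 35.3% of the distal sites and 37.8% of the other autosomal sites held this motif, which reads the same on both strands.

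The distal ends were denser in accessible sites than the rest of the autosomes and richer in promoters. They held 42.1 sites per Mb of sequence, against 33.4 elsewhere, and 14 of 19 ends were denser than the rest of their own chromosome. The end of chromosome 11 held 80.7 sites per Mb against 45.5, and that of chromosome 15 held 73.3 against 37. The end of chromosome 17 was the sparsest, with 3.67 against 37.6 sites per Mb, followed by chromosome 18 with 7 against 32.8. The number of sites followed the number of protein-coding genes in the end, of which there were 740 in all. Pearson's r across the 19 ends was 0.60 and Spearman's rho was 0.685, as a description of ends measured in the same 4 libraries.

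A promoter, here a site within 3 kb of an annotated transcript start, made up 41.2% of the distal sites (982 sites) against 35.2% of the other autosomal sites. The share at the opposite ends, the 2145 sites within 3 Mb of the smallest start of each autosome, was 41.4%. Intronic sites were fewer, 27.6% against 31.3%, and so were intergenic sites, 27.0% against 29.8%. The distal sites had a median GC content of 50.4% against 48.1%, and their surrounding 100 kb had 46.2% against 44.3%. The median gene density around a site was 13.3 protein-coding genes per Mb against 9. The motif GGGCGG, the core letters bound by Sp1, was found on either strand in the central 300 bases of 18.9% against 17.2% of sites. The telomere repeat unit TTAGGG was found on either strand in 11.4% against 10.2%. No motif contains another. Promoter shares ran from 17.4% at the end of chromosome 8 to 75.6% at that of chromosome 10.

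The accessibility of a site is given as the authors' normalised read count. The median over distal sites was 57 and 54 in WT replicates 1 and 2, and 56 and 59 in KO replicates 1 and 2. Over the other autosomal sites it was 53, 52, 53 and 51 in the same order. Distal sites were thus a little higher in each library than the other autosomal sites. The sites at the opposite, centromere-side ends had 58, 59, 63 and 57. Of the distal sites, 27.9% fell in the highest quartile of mean value and 22.3% in the lowest, where the other autosomal sites had 24.9% and 25.4%. Libraries ranked the distal sites alike, with Spearman's rho between 0.860 for the 2 KO libraries and 0.906 for WT replicate 1 with KO replicate 1, across sites that are not independent.

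Levels differed more between chromosome ends than between genotypes. The end of chromosome 10 was highest, with median site values of 118 and 109 in WT and of 105 and 113 in KO. The end of chromosome 4 had 80 in both WT libraries, with 79 and 83 in KO. The lowest was chromosome 12, with 27 and 31 in WT and 22 and 36 in KO. These values overlapped between the genotypes at all 3 ends. At chromosome 13 KO replicate 2 stood alone with 59, beside 31 and 31 in WT and 30 in KO replicate 1. At chromosome 19 it was KO replicate 1, with 63 beside 46, 45 and 44. At chromosome 17, with 11 sites, WT replicate 1 stood alone with 74 beside 37, 27 and 39.

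**Figure D1:**
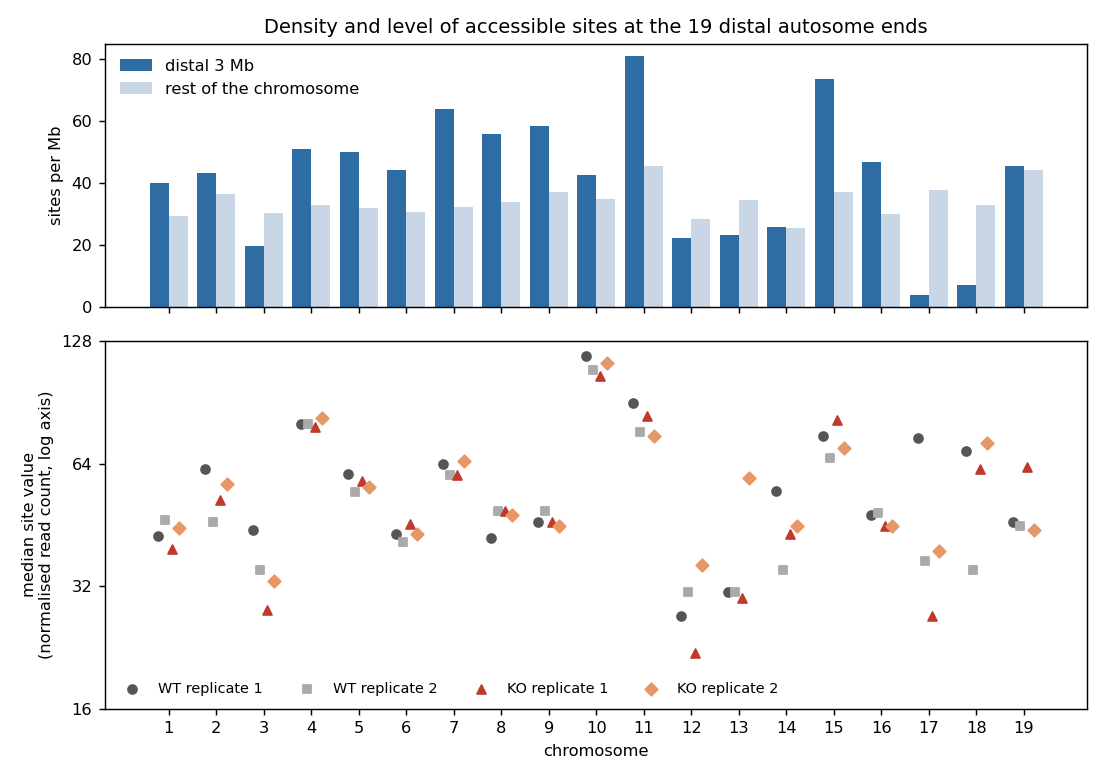
Sites per Mb in the distal 3 Mb and in the rest of each chromosome (upper panel), and the median site value of each end in each of the 4 libraries (lower panel, normalised read count on a log axis). Site density was lowest at chromosomes 17 and 18 and highest at chromosome 11, and at chromosome 10, the end with the highest levels, the libraries lay between 105 and 118.

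Few distal sites differed between the genotypes, and falls were as many as rises. At limma p under 0.01 with a log2 fold change of 1 or more in either direction, the thresholds of the study, 6 of 2386 distal sites were called, or 0.251%, against 0.373% of all sites. Of the 6, 3 were lower in KO (0.302% of all sites were) and 3 were higher (0.0705% of all sites). No site of the table had a limma p under 0.05 after Benjamini-Hochberg adjustment. Under equal library totals the calls were 4 lower and 2 higher. Without WT replicate 1 there were 0 lower and 8 higher calls, without WT replicate 2 there were 0 and 1, and without KO replicate 2 there were 6 and 2. The calls over the whole table moved too, from 307 to between 36 and 612 with 1 library left out.

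Below these thresholds the distal sites leaned towards higher values in KO. The median log2 fold change was 0.050 at distal sites, 0.0064 at the other autosomal sites and 0.056 at the centromere-side ends. It was above 0 at 56.7% of distal sites and at 50.7% of the others. Both KO libraries lay above both WT libraries at 432 distal sites (18.1%, against 14.6% of all sites), and below both at 274 (11.5%, against 14.3%). At the centromere-side ends these shares were 17.0% and 11.8%. At an unadjusted limma p under 0.05 there were 80 distal sites (3.35%, against 3.13% of all sites), of which 59 were higher in KO (2.47%, against 1.54%) and 21 lower (0.880%, against 1.59%). The centromere-side ends had 73 sites at this p (3.40%), 48 of them higher and 25 lower. Under equal library totals the distal 59 and 21 became 37 (1.55%, against 0.937% of all sites) and 33 (1.38%, against 2.06%). The distal median log2 fold change became -0.017, while its difference from the other autosomal sites went from 0.043 to 0.044.

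Chromosome 19, where KO replicate 1 was high along the whole chromosome, held 11 of the 59 sites. Without it, 48 of 2250 distal sites were higher at this p (2.13%, against 1.45% of the autosomal sites off chromosome 19), and both KO libraries lay above both WT libraries at 391 (17.4%, against 14.3%). The median log2 fold change was then 0.040. With 1 library left out in turn, sites higher at this p numbered 24 to 118 and those lower 5 to 48. The 24 came without WT replicate 2, when the distal sites (1.01%) and all sites (0.996%) had nearly the same share of rises. Without WT replicate 1, without KO replicate 1 and without KO replicate 2 the distal shares were 1.38%, 4.95% and 2.68%, against 0.775%, 3.04% and 2.11% of all sites.

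A test over libraries could not decide on the lean, because 2 libraries against 2 allow no exact permutation p under 0.333. The median log2 value of distal sites minus that of the other autosomal sites was 0.10 and 0.053 in WT and 0.078 and 0.21 in KO, so that KO replicate 1 lay between the WT libraries. The means were 0.078 ± 0.035 (SD, n = 2) and 0.14 ± 0.091 (SD, n = 2), and the two-sided exact permutation p was 0.667. Distal sites took 3.34% and 3.23% of the summed autosomal values in WT, and 3.36% and 3.43% in KO. Both KO libraries were above both WT libraries in this share, and the exact permutation p of 0.333 is the smallest that 2 libraries against 2 allow.

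The log2 fold change rose with the level of a site. From the lowest to the highest quartile of mean value, the median log2 fold change of distal sites was -0.083, -0.023, 0.044 and 0.13. In the other autosomal sites it was -0.16, -0.045, 0.0051 and 0.093. Distal sites were the higher ones in each quartile. By annotation, their medians were 0.082 for intergenic, 0.045 for promoter, 0.037 for intronic and 0.017 for exonic sites. KO replicates 1 and 2 against the WT mean gave 0.040 and 0.062 over all distal sites. At the centromere-side ends they gave 0.096 and 0.0020.

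By distance, the bin next to the end had the highest share of sites with both KO libraries above both WT libraries, and the lowest share with both below. The 358 sites within 0.5 Mb of the largest end had medians of 62 and 57.5 in WT and of 68 and 71 in KO, with a median log2 fold change of 0.094. KO replicates 1 and 2 gave 0.051 and 0.15 there, and 16 of 19 ends had a median above 0. Both KO libraries were above both WT libraries at 22.1% of these sites and below both at 7.26%. Between 2.5 and 3 Mb, the 415 sites had medians of 49, 51, 48 and 53, and the shares were 14.9% and 14.0%. The 4 bins between gave median log2 fold changes of 0.029, 0.10, 0.052 and 0.023 with increasing distance, so the fall was not steady. Each of the 6 bins held 1 called site. Promoter shares by bin lay between 35.8% and 44.6%, and the median GC content of the surrounding 100 kb rose from 43.9% next to the end to 47.2% in the bin farthest from it.

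**Figure D2:**
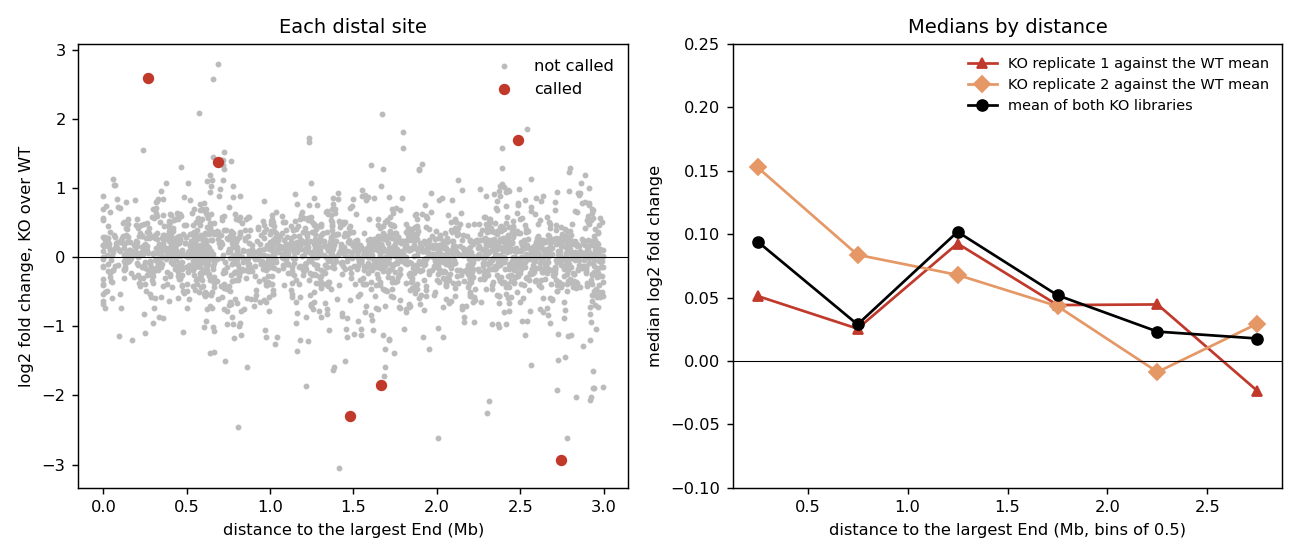
Log2 fold change (KO over WT) of each distal site against its distance to the largest site end (left, called sites in red), and the median in bins of 0.5 Mb for each KO library against the WT mean and for their mean (right). The medians lay between -0.024 and 0.15, far inside the spread of single sites, and were highest next to the end in KO replicate 2.

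To give each end a value with an error, the values of its sites were summed and fitted with limma beside all 806 autosomal windows of 3 Mb laid back from the distal ends. The log2 fold change was above 0 at 17 of 19 ends, against 69.1% of all windows. With the mean of log2 values in place of the sum, which weighs weak sites as much as strong ones, it was above 0 at 10 of 19 ends, and the median of all windows was -0.044. It was above 0 at 14 ends under equal totals and at 13 under quantile normalization. The median of the ends was 0.10 and that of all windows 0.055. Both KO sums were above both WT sums at 10 ends (26.3% of all windows), and below both at 0 ends (6.45% of all windows). At 9 ends the difference between the WT libraries was larger than the log2 fold change.

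At an unadjusted limma p under 0.05 there was 1 end (2.98% of all windows), that of chromosome 19. Its sums were 13091 and 12914 in WT and 18188 and 14053 in KO, a log2 fold change of 0.30 (SE 0.12, limma adjusted p = 0.897). Both KO libraries were above both WT libraries, KO replicate 1 by far the more. The rest of chromosome 19 moved in the same way, with median log2 fold changes of 0.47 in KO replicate 1 and -0.029 in KO replicate 2. Relative to the rest of its chromosome the end differed by 0.028, and without KO replicate 1 its log2 fold change was 0.11.

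The largest log2 fold change was that of chromosome 13, 0.34 (SE 0.16), where the sums were 4890 and 4716 in WT and 5285 and 6981 in KO (limma adjusted p = 0.897). Chromosome 12 had 0.26 (SE 0.19), from sums of 3679 and 3963 in WT and 3916 and 5344 in KO. In both ends the difference lay mainly in KO replicate 2, which was higher by 0.54 and 0.48 while KO replicate 1 was higher by 0.14 and 0.036. Relative to the rest of their chromosomes these ends differed by 0.27 and 0.11. The ends of chromosomes 3 and 17 were the ones below 0, at -0.075 (SE 0.18) and -0.035 (SE 0.32), with the KO lines on opposite sides of the WT mean.

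When each chromosome's median was made equal in the 4 libraries, 6 ends had an unadjusted limma p under 0.05. All were higher in KO (chromosomes 2, 4, 5, 6, 9 and 13). Of all 806 windows, 76 had such a p (9.43%), 69 of them higher in KO. Among the ends the lowest p was that of chromosome 5, where the log2 fold change was 0.20 (SE 0.068, limma adjusted p = 0.468).

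**Figure D3:**
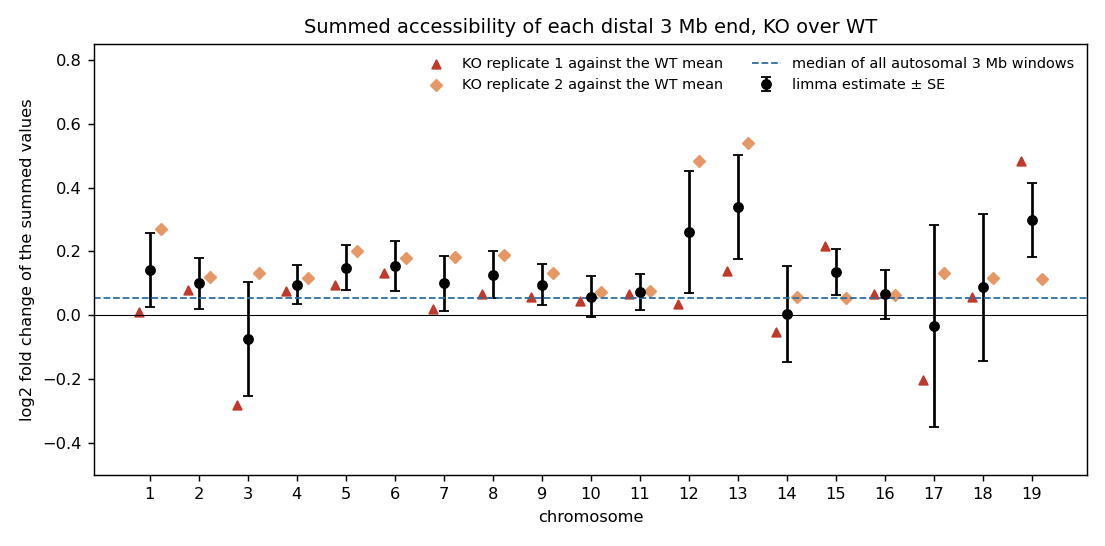
Log2 fold change of the summed site values of each distal 3 Mb end (black, limma estimate ± SE) with each KO library against the WT mean. The estimates lay between -0.075 and 0.34, and the KO libraries were furthest apart at chromosomes 3, 12, 13, 17 and 19.

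Of the called sites, the one with the highest values lay on chromosome 1 at chr1:192745448-192746650, 2.49 Mb from the largest end. It is in an intron of Hhat, the acyltransferase that adds palmitate to Hedgehog proteins, and overlaps an annotated small nuclear RNA gene. Its values were 103 and 96 in WT and 394 and 266 in KO. The KO libraries were well apart from WT, with a log2 fold change of 1.69 (SE 0.26, limma adjusted p = 1). It was the only called distal site with a mean value above the median of all sites.

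The other 5 had lower values and were named after their values were seen. At chr16:96602184-96602599, in an intron of Dscam, a cell adhesion molecule of neurons, the values were 57 and 53 in WT and 12 and 9 in KO (log2 fold change -2.30, SE 0.44). At chr3:157190575-157190956, in an intron of Negr1, another neuronal adhesion gene, they were 59 and 34 against 3 and 8 (-2.93, SE 0.68). At chr3:158272572-158273165, in an intron of Lrrc7, which encodes a scaffold protein of synapses, they were 78 and 63 against 25 and 14 (-1.85, SE 0.43). At all 3 sites, picked by these same values, both KO libraries were below both WT libraries.

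Of the remaining rises, chr12:119762460-119762902 lay between genes, 183 kb from the nearest start of Tmem196, with values of 10 and 5 in WT and 51 and 45 in KO (2.59, SE 0.55). The site chr13:119635573-119635943 lay in an intron of Ccl28, a chemokine gene, with 26 and 20 in WT and 61 and 60 in KO (1.37, SE 0.37). Groups did not overlap at any of the 6 sites. The sites were picked by these same values, so this is a description. In the whole table both KO libraries lay above both WT libraries at 14.6% of sites and below both at 14.3%. All 6 had an adjusted p of 1, and each missed p under 0.01 in at least 2 of the 4 fits that left out 1 library.

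**Figure D4:**
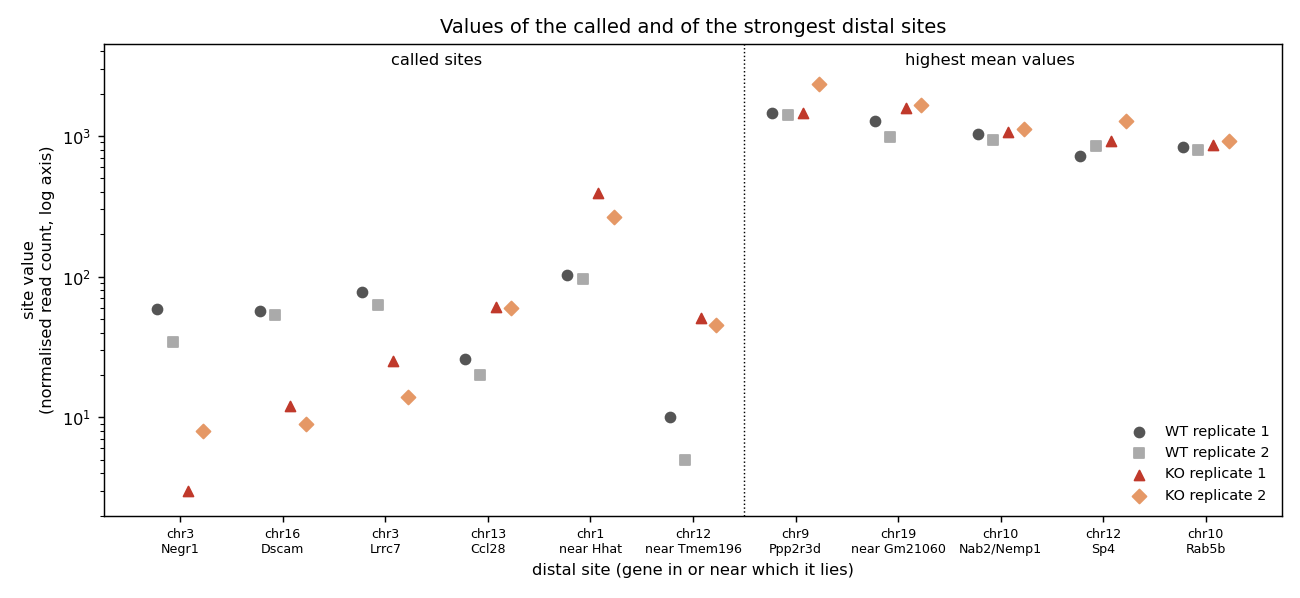
Values (normalised read count, log axis) in each library of the 6 called distal sites, left of the dotted line, and of the 5 distal sites with the highest mean, right of it. The called sites lay between 3 and 394. The strongest sites lay between 724 and 2337, with log2 fold changes of 0.14 to 0.53.

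The 2 sites with the highest mean values of the whole table lay at distal ends. The highest mean value of all 82325 sites was that of chr9:124422826-124425418, a promoter site of Ppp2r3d, a regulatory subunit gene of protein phosphatase 2A, 42.7 kb from the largest end. It measured 1466 and 1401 in WT and 1458 and 2337 in KO (log2 fold change 0.36, SE 0.20), so the rise rested on KO replicate 2 and had an unadjusted limma p above 0.05. It ranked first in both WT libraries and in KO replicate 2. The second highest, chr19:61266407-61267274, was also the last site of its chromosome and lay 29.8 kb from the nearest protein-coding start, Gm21060. It measured 1269 and 983 in WT and 1574 and 1656 in KO (0.53, SE 0.12), past the limma p threshold and below the fold threshold. The log2 fold change of this chromosome 19 site was 0.33 with chromosome medians made equal and 0.20 under quantile normalization. In both settings the unadjusted limma p was above 0.05. It stayed past the p threshold under equal totals (0.46), with a pseudocount of 8 (0.53) and with only sites at or above the median mean value (0.53). No other place in the assembly matched either site at 95% identity over 90% of its length. The search could not find copies missing from the assembly or shorter repeats. How multi-mapping reads were handled is not given, so whether the signal is unique to these sites was not tested.

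The next 3 among the distal sites were promoters, ranked 30, 66 and 116 by mean value in the whole table. The site shared by Nab2, a corepressor of EGR factors, and Nemp1, a nuclear envelope gene, on chromosome 10 had 1024 and 939 in WT and 1070 and 1128 in KO. That of Sp4, a zinc finger transcription factor on chromosome 12, had 724 and 848 against 918 and 1280 (0.47, SE 0.16). That of Rab5b, a GTPase of early endosomes, on chromosome 10 had 828 and 791 against 862 and 920. At each of these 3 sites both KO libraries were above both WT libraries, as at 14.6% of all sites, and none was called. Off the distal ends, sites in the highest quartile of mean value had a median log2 fold change of 0.093. The Sp4 site had an unadjusted limma p under 0.05.

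The last site of each chromosome was accessible to very different degrees, with mean values from 12.8 (chromosome 3) to 1370.5 (chromosome 19) and a median of 47.5. Of the 19, 5 were promoter sites, 5 had means above 200 and 14 were under 100. The last site of chromosome 16, at a start of A630089N07Rik, had 473 and 484 in WT and 546 and 520 in KO. That of chromosome 8 had 269 and 248 in WT and 272 and 311 in KO. The last site of chromosome 5, shown above, had 25 and 27 in WT and 22 and 17 in KO. None of the 19 was called, 9 had a log2 fold change above 0, and 1 (chromosome 19) had an unadjusted limma p under 0.05. The chromosome 19 site lost this p with chromosome medians made equal and under quantile normalization.

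In 6 chromosomes (4, 5, 7, 11, 12 and 13) the last site ended within 1 kb of the last sequenced base. The last kilobase of sequence thus held a site in 31.6% of chromosomes, and the first kilobase on the centromere side in 21.1% (4 of 19). The kilobases that flank internal assembly gaps held a site in 7.75% of 258 cases, and all kilobase bins of the autosomes in 4.91%. Of the 6 sites, those of chromosomes 5, 12 and 13 had means of 22.8, 23 and 17. That of chromosome 4 had 112 and 24 in WT with 90 and 80 in KO, so the WT lines differed more than the genotypes. Near-identical copies elsewhere in the assembly were found for 7 of 2386 distal sites (0.293%), 4 of them on chromosome 13, and for 1.21% of the centromere-side sites.

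HAT1-dependent accessibility domains (HADs) are stretches where the mean log2 fold change over 25 neighbouring sites is under -0.58, as the study defined them in primary MEFs. By the same definition, such stretches are joined across gaps of up to 1 Mb. Applied here, the rule gave 170 domains, of which 4 reached into distal ends and covered 4.86 Mb of them, 8.53% of the ends beside 8.05% of the autosomes. The rule uses the fold changes, so the values inside a domain are a description. On chromosome 3 the domain took in 33 distal sites around Ptger3, Cth and Lrrc7, with median values of 48 and 37 in WT and 25 and 26 in KO. Both KO lines were lower there, at -0.94 and -0.85 on the log2 scale, and both called falls of chromosome 3 lay in it.

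The other domains were less even. On chromosome 12, 20 sites from Rapgef5 to Sp4 had medians of 13.5 and 31 in WT and 5.50 and 11.5 in KO, and WT replicate 1 was lower than WT replicate 2 by a mean of -1.13 where the mean log2 fold change was -1.20. The domain ends at the Sp4 promoter site, itself among the strongest of all. On chromosome 17, 10 sites around Mettl4 had medians of 52.5 and 31.5 in WT and 21.5 and 33 in KO, and KO replicate 2 was not lower (0.072). The mean log2 fold change of these 10 sites was -0.27, which does not reach the cutoff that was applied to sliding windows, partial ones at the chromosome end included. This domain made up 1.62 Mb of the 4.86 Mb, and with full windows only the domains covered 3.25 Mb of the ends. On chromosome 16 the domain held 2 sites. Without WT replicate 1 the domains covered 2.44 Mb of the ends, and without KO replicate 1 they covered 2.93 Mb.

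Domains by the same rule in the other direction were rare, 6 in the whole table, and 2 of them lay in distal ends. They covered 0.981 Mb, which is 1.72% of the ends beside 0.134% of the autosomes. With full windows only, without the partial ones at chromosome ends, the length was 0.325 Mb. The domain on chromosome 12 ran to the last site of the chromosome with 21 sites around Macc1 and Tmem196, whose medians were 22 and 22 in WT and 26 and 59 in KO. It rested on KO replicate 2, with mean differences from WT of 0.11 and 1.33 in the KO lines. The domain on chromosome 13 held 17 sites around Ccl28 and Hmgcs1, an enzyme of cholesterol synthesis, with medians of 37 and 21 in WT and 61 and 72 in KO. Both KO lines were higher there (0.78 and 0.95), and the WT lines differed by 1.11. The covered length was 2.86 Mb without WT replicate 1, 3.66 Mb without KO replicate 1 and 0.497 Mb without KO replicate 2.

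Genes of several known groups start in the distal ends, and the promoter sites of 13 lists were read as groups. None of their 219 sites was called, and 6 had an unadjusted limma p under 0.05 (2.74%, against 3.13% of all sites), a share no higher than the background. These were the sites of Hoxc4, Bace2, Cxcr6, Fyco1, Narf and Mib2 with Mmp23. All 982 distal promoter sites had a median log2 fold change of 0.045 and 57.7% were above 0, beside 0.013 and 51.9% in all autosomal promoter sites. Lists are described by counts and medians, without a test of their own.

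The HoxC cluster, transcription factors that pattern the body axis, lies at the end of chromosome 15, where 8 of 9 genes had a promoter site. Of their 14 sites, 1 had a log2 fold change above 0, and the median was -0.38. The KO lines differed: KO replicate 1 had a median of -1.08 and KO replicate 2 of 0.15. The strongest site, at Hoxc6, had 70 and 100 in WT and 39 and 123 in KO, and that of Hoxc13 had 29 and 18 against 5 and 72. Those values overlap between the genotypes. At Hoxc4, with 35 and 53 against 14 and 15, both KO libraries were lower (log2 fold change -1.51, SE 0.45). They were also lower at Hoxc5, the second strongest, with 88 and 97 against 61 and 53 (-0.69, SE 0.30). Both KO libraries were below both WT libraries at 3 of the 14 sites (14.3% of all sites) and above both at 0 (14.6% of all sites).

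The type II keratin cluster of epithelial filaments lies on the same end, and 6 of its 23 genes there had a promoter site, 9 sites in all. The strongest was Krt80, with 474 and 337 in WT and 369 and 396 in KO. At Krt7 the values were 104 and 44 against 160 and 77, so the genotypes overlapped. The median of the 9 sites was 0.26, and none had an unadjusted limma p under 0.05. At the end of chromosome 9, Cxcr6, a chemokine receptor gene of T cells, had 16 and 15 in WT and 54 and 36 in KO (log2 fold change 1.45, SE 0.44). The neighbouring Fyco1, a gene of vesicle transport in autophagy, had 425 and 412 against 489 and 574 (0.34, SE 0.13). The 9 sites of the chemokine receptor group at this end, in which Fyco1 was counted, had a median of 0.34, with 8 above 0. That median is the value of the Fyco1 site, which is not a receptor gene.

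The imprinted domain at the end of chromosome 7 had a median of -0.0028 over 23 sites, with 11 above 0. Nap1l4, a histone chaperone gene, had 565 and 687 in WT and 648 and 808 in KO, and Phlda2, which restrains placental growth, had 165 and 140 against 141 and 119. The neighbouring group of Fgf and Ccnd1 genes had a median of 0.070 over 17 sites. Its strongest site, at Fadd, an adaptor of death receptors, had 357 and 430 in WT and 406 and 429 in KO. The genotypes overlapped at Nap1l4, Phlda2 and Fadd.

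Housekeeping genes had promoter sites of high value, with a median of 160 on chromosome 11 and of 177 on chromosome 2. On chromosome 11, all 20 listed genes had a site, and the 38 sites had a median of 0.079. P4hb, a protein disulfide isomerase, had 778 and 718 in WT and 818 and 1081 in KO, and Actg1, cytoplasmic actin, had 503 and 497 against 522 and 582. Narf had 721 and 768 against 836 and 943 (0.25, SE 0.092). On chromosome 2, 26 sites of 17 of 18 genes had a median of 0.11, with 20 above 0. The proteasome gene Psma7 had 460 and 465 in WT and 493 and 399 in KO. Neural genes of the same end had a site at 4 of 10 genes, and the median value of these sites was 19.5.

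Genes of telomere and genome upkeep were listed for their role, and 6 of the 20 lie in a distal end. Rtel1, a helicase that unwinds telomeric loops, had 143 and 138 in WT and 143 and 152 in KO. Brca2, a recombination factor, had 155 and 156 against 155 and 183, and Sirt7, a nuclear deacetylase, had 297 and 297 against 308 and 275. The 10 sites of the list had a median of 0.094, and none had an unadjusted limma p under 0.05. On chromosome 16, the 15 sites of keratinocyte and interferon genes had a median of -0.092. There Bace2, a membrane protease gene, had 158 and 147 in WT and 96 and 84 in KO (-0.76, SE 0.25).

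On chromosome 4, the 30 sites of signalling and chromatin genes had a median of -0.019, with 13 above 0. The site chr4:155653060-155653806, shared by Mib2, a ubiquitin ligase of Notch signalling, and the metalloproteinase gene Mmp23, had 80 and 50 in WT and 227 and 125 in KO (1.4, SE 0.40). Tnfrsf14 and Tnfrsf18, receptors of the TNF family on the same end, had 42 and 65 against 23 and 35, and 20 and 18 against 9 and 11. At both receptors the KO libraries were below WT, without an unadjusted limma p under 0.05. The 25 sites of fibroblast matrix and adhesion genes had a median of 0.047. Nrp1, a co-receptor for semaphorins and VEGF, had 782 and 744 in WT and 742 and 657 in KO, and Itgb1, an integrin subunit, had 551 and 560 against 569 and 611.

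**Figure D5:**
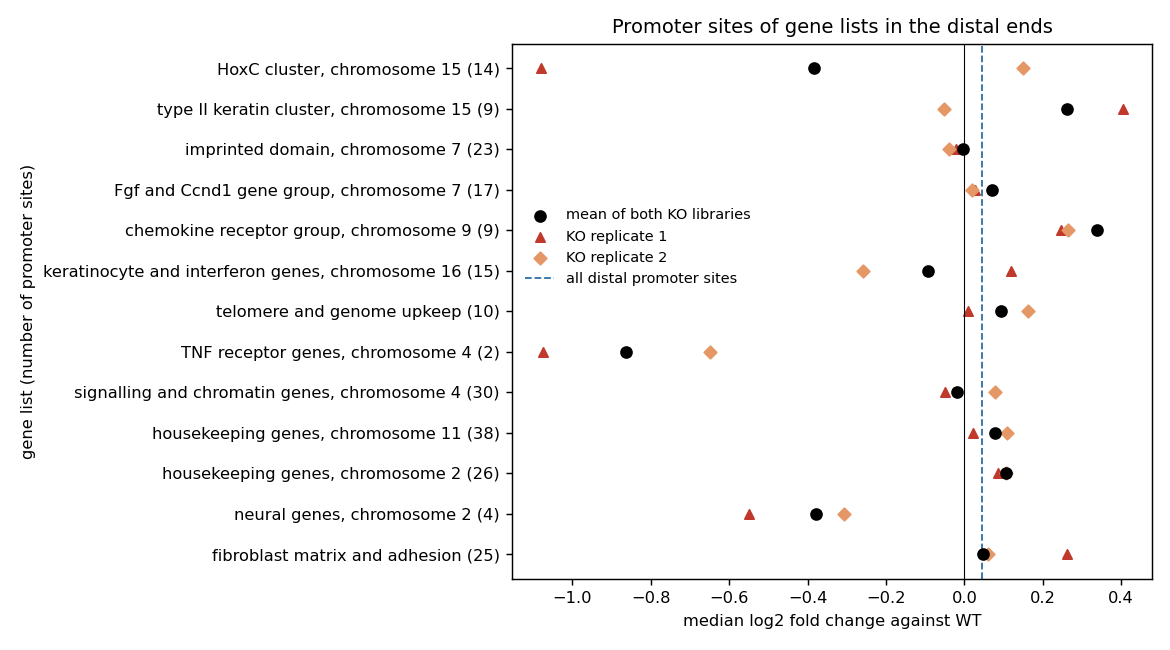
Median log2 fold change against WT of the promoter sites of each gene list, for each KO library and for their mean, with the median of all distal promoter sites as a dashed line. The KO lines were furthest apart for the HoxC cluster, at -1.08 and 0.15, and close to each other for the housekeeping lists.

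In the whole table, the summed values were between 8008069 and 8516263 per library after the authors' scaling, and the spacing of the whole numbers gives about 5680000 (KO replicate 2) to 11420000 (WT replicate 2) reads in sites, of which 191000 to 363000 lay in distal sites. The promoter site of Hat1 had 390 and 384 in WT and 438 and 368 in KO, so accessibility of the promoter does not check the knockout. Of the fibroblast markers, 11 of 11 had a promoter site, with a median mean value of 243. The epithelial markers had a site at 4 of 5 genes with 47.6, endothelial markers at 3 of 3 with 55.5, and blood markers at 1 of 4 with 17, with none at Ptprc, Spi1 and Cd3e. Markers were read over all libraries together, and their part in the differences above was not tested.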

How the data were processed

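ATAC-Seq libraries of 4 immortalized MEF lines, 2 per genotype, were analysed from 1 table. Per the study methods and the submitters' processing notes, paired-end reads had been aligned by the authors to mm10 (BWA 0.7.12). The authors called peaks with MACS2 2.1.0 and tested sites with DESeq2. The deposited values, a score, are read counts of merged sites that were scaled by the authors with 1 factor for each library, then rounded to integers. Read filters, multi-mapping reads and the Tn5 offset are not given in the sources used here. Columns with the authors' fold changes and p-values were not used. Library depth was estimated from the spacing of the whole numbers, taken as counts multiplied by 0.714 (WT replicate 2) to 1.5005 (KO replicate 2).

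A count test could not be used on rounded, scaled values. limma 3.58.1 (R 4.3.3) with an intensity trend was fitted to log2(value + 1) over all 82325 sites, without a filter, and p-values were Benjamini-Hochberg adjusted over all sites. The scale understates changes of low sites. Windows were summed before log2(sum + 1). The tests were checked on simulated data. Genes came from GENCODE vM21 and sequence from RefSeq GRCm38.p6. Copies were searched with blastn 2.17.0. Python 3.11.15, numpy 2.4.6, pandas 2.3.3 and scipy 1.17.1 were used for the rest. No depth interval applies to scaled values, and 2 libraries per genotype limit the precision.

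Named were the last sites, called sites whose mean reached the median of the table, the 5 strongest sites, promoter sites of the listed genes and all 19 ends. The plan put the highest values of each list first, but the examples given are not always the highest of their list. Listed sites with an unadjusted limma p under 0.05 were named too. Members and lists were chosen with earlier results of these data known. Replicates were numbered in accession order. The value of 1 listed gene is not reported here.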

Additional observations from a re-analysis of the deposited data

How the results depend on the processing

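No paired analysis was possible because the line names of the genotypes share only 1 number, in WT replicate 1 and KO replicate 2, and no label says what it marks. Called distal sites, 3 lower and 3 higher in KO, became 0 and 1 with only sites at or above the median mean value. Rises were 9 with no fold filter, and falls were 0 with ends of 1 Mb and 6 with ends of 5 Mb. Leaving out each replicate gave 0 to 6 falls and 1 to 8 rises. The median log2 fold change was -0.017 under equal totals, and 0.017 to 0.076 with a replicate left out. Its difference from the other autosomal sites kept its sign in every alternative tried, 0.017 to 0.080 with a replicate left out. Ends with an unadjusted limma p under 0.05, 1 as reported, were 0 with the mean of log2 values, under equal totals and under quantile normalization. They were 6 with chromosome medians made equal and 3 with windows of 1 Mb. Ends above 0, 17 of 19 as reported, were 10 with the mean of log2 values, 14 under equal totals, 13 under quantile normalization, and 16 to 19 with a replicate left out. HAD length in the ends, 4.86 Mb, was 2.67 Mb with windows of 51 sites, 1.14 Mb at a cutoff of 1, 2.84 Mb with a pseudocount of 8, and 2.44 to 5.97 Mb with a replicate left out. Domains higher in KO, 0.981 Mb, measured 0.325 Mb with full windows only, 0 Mb at a cutoff of 1, and 0.497 to 3.66 Mb with a replicate left out; these alternatives were chosen after the data were seen. Over named sites and ends, 214 alternatives kept the call or its absence, 23 lost it and 9 gained it. No called value reversed, and 23 uncalled ones changed sign. The cause was not tested. Leaving out a replicate leaves 1 residual degree of freedom, and the lone library is assumed to vary like the other genotype. Nothing separates replicate lines from embryos or cultures, so p-values measure the spread between these 4 lines. Fewer than 3 libraries per genotype and the rounding of low values limit calls at weak sites.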
